A study of Homo sapiens with 12 samples.

Results

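The small RNA silencing machinery was followed here as 10 genes in PC3 and MG63 cells given siRNA against LARP4A or LARP4B. The genes are those of the RNase III enzymes DROSHA and DICER1, the export receptor XPO5, the Argonaute proteins AGO1, AGO2, AGO3 and AGO4, and the TNRC6 (GW182) proteins TNRC6A, TNRC6B and TNRC6C. They were taken by symbol on chromosomes 1 to 22 and X, with no measured value in the rule. The members and the further lists used below were nevertheless chosen with earlier results of these data known. All 10 were present among 26415 genes named at 1 locus, and all 10 passed the filter on low counts, which left 15668 genes to test.

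PC3 is a human prostate adenocarcinoma line and MG63 a human osteosarcoma line, both labelled wild type. Each line received, with Lipofectamine RNAiMAX, a non-targeting siRNA (siControl), siRNA against LARP4A (siLARP4A) or siRNA against LARP4B (siLARP4B) at 10 nM, and poly(A) RNA was collected 72 h later. Each of the 6 groups had 2 libraries, which the design text calls biological replicates without saying how they were separated. The p-values measure the spread between replicate libraries, estimated over all 12 libraries and drawn toward that of other genes. The proteins LARP4A and LARP4B belong to the La-related family of RNA-binding proteins. The siRNA sequences are not given in the sources used here. Every group, siControl included, received siRNA, so that none shows the machinery without an added small RNA.

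In the canonical pathway, DROSHA cuts the hairpin of a microRNA out of its primary transcript in the nucleus, XPO5 carries the hairpin to the cytoplasm, and DICER1 cuts off its loop. The resulting duplex is loaded into an Argonaute protein, which keeps a single strand as its guide, and siRNA is loaded into Argonaute proteins as well. A TNRC6 protein then binds the Argonaute and brings in the deadenylases and decapping factors that silence the target, while AGO2 can also cut a well-matched target itself.

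Library totals ran from 16950119 to 24864977 fragments, and the log2 values of replicates correlated across genes at a Pearson r of 0.994 to 0.995. Replicates of PC3 siLARP4A and of MG63 siLARP4B differed most, by up to 0.40 and 0.42 on the log2 scale for a member. LARP4, the gene of LARP4A, changed by -3.01 on the log2 scale after siLARP4A in PC3 and by -1.94 in MG63. LARP4B changed by -2.48 after siLARP4B in PC3 and by -1.69 in MG63. In MG63, LARP4 stood at 8.18 and 8.50 FPKM (fragments scaled by transcript length and library size) with siControl and higher, at 10.6 and 11.5, with siLARP4B. In PC3 it stood at 19.0 and 19.4 with siControl and at 18.8 and 19.0 with siLARP4B. Keratin genes stood at 203 to 401 FPKM in PC3 for KRT8, KRT18 and KRT19. COL1A1, COL1A2 and SPARC stood at 379 to 1337 FPKM in MG63, but the bone genes RUNX2 and ALPL were low, at 0.140 to 0.654 and 0.342 to 1.08 FPKM. In bulk RNA, fewer cells of a kind and less RNA per cell cannot be told apart.

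After siLARP4A, DICER1, AGO2, AGO4 and TNRC6C rose and TNRC6A and XPO5 fell in both lines. In PC3, 4 of the 10 genes were higher and 2 lower at an edgeR adjusted p below 0.05, when 17% of all genes tested were higher and 19% lower. In MG63, 5 of the 10 were higher and 2 lower, against 14.5% and 11.9% of all genes. DROSHA was the additional gene in MG63, with an increase of 0.15 that 16 of 18 alternative settings did not call.

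After siLARP4B, TNRC6A rose in both lines. In PC3 the other called genes, AGO2, DICER1, DROSHA, XPO5 and TNRC6B, were lower, while in MG63 XPO5 was higher and TNRC6B lower. In PC3, 1 of the 10 genes was higher and 5 were lower, when 21.3% of all genes were higher and 23.4% lower. These background shares depend on the scaling, since upper-quartile scaling gave 4429 higher and 2880 lower genes in that comparison in place of 3336 and 3661. In MG63, 2 of the 10 were higher and 1 was lower, against 18.8% and 16.3% of all genes. Both comparisons within a line used the same siControl libraries, so that a deviation of those libraries enters both. On scaled counts, both siLARP4A libraries lay on 1 side of both siControl libraries for 63.4% of all genes in PC3 and 63.9% in MG63. For siLARP4B these shares were 72.0% and 65.5%. Between siLARP4A and siLARP4B they were 74.4% in PC3 and 70.2% in MG63. Groups described below as not overlapping are to be read beside these shares.

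**Figure D1:**
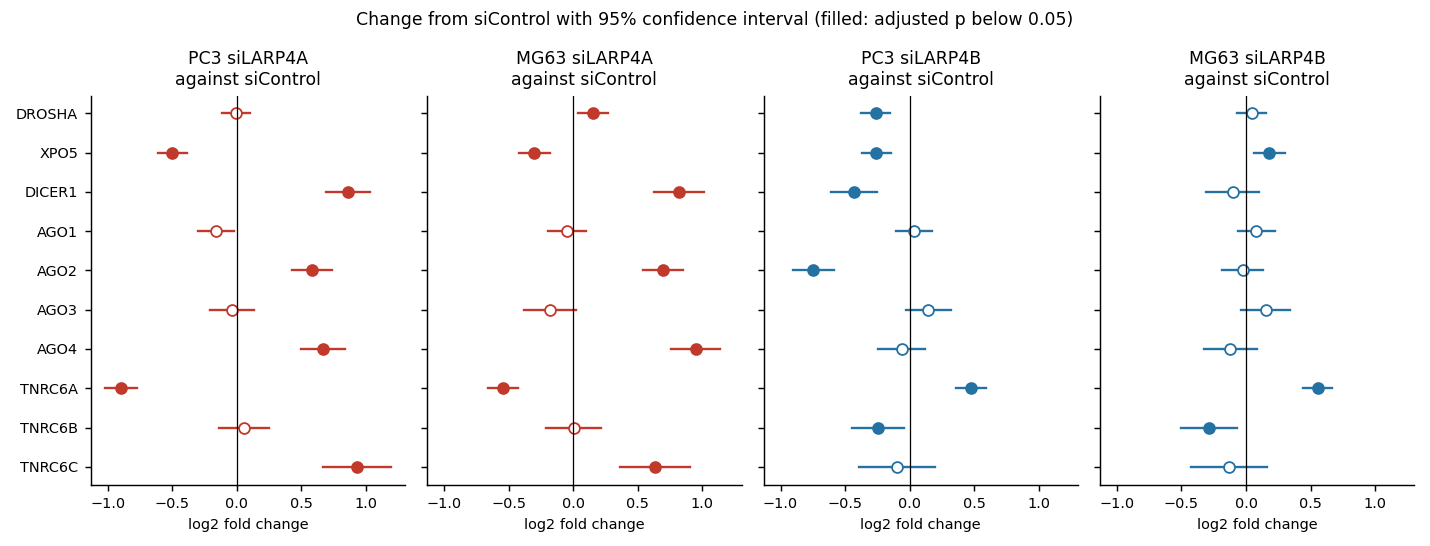
The log2 fold change of each of the 10 genes from siControl (horizontal axis, points) with its 95% confidence interval (lines), in 4 panels for siLARP4A and siLARP4B in PC3 and MG63, 2 libraries per group, filled where the edgeR adjusted p was below 0.05. The siLARP4A panels share their 4 large increases (DICER1, AGO2, AGO4 and TNRC6C) and their decreases of TNRC6A and XPO5, while TNRC6A lies above 0 in both siLARP4B panels.

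Of the 10 genes, DICER1 and AGO4 stand for those that rose after siLARP4A and TNRC6A for those that fell, so the 250 bases before the start of the transcript model used for each are shown. They come from RefSeq (GRCh38.p14), read 5′ to 3′ in the direction of the gene, and hold no exon of that gene in GENCODE release 29. DICER1 lies on the minus strand, with its window at chr14:95157530-95157779. AGO4 and TNRC6A lie on the plus strand, with windows at chr1:35807766-35808015 and chr16:24729401-24729650. Each window lies within another model of its gene that starts further upstream, at position 95158010 for DICER1, 35807636 for AGO4 and 24610205 for TNRC6A. For those models these bases lie in an intron. Capitals mark the GC box (GGGCGG) and the CCAAT box (CCAAT), each searched on both strands.
DICER1: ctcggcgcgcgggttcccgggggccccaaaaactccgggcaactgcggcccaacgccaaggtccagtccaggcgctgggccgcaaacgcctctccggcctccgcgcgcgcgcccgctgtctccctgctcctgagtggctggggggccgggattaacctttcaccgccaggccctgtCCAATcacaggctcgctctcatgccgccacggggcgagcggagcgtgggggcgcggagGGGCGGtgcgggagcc
AGO4: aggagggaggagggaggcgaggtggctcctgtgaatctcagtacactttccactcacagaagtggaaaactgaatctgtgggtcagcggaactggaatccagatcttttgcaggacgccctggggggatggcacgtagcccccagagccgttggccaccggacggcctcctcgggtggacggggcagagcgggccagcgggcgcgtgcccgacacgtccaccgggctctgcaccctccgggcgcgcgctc
TNRC6A: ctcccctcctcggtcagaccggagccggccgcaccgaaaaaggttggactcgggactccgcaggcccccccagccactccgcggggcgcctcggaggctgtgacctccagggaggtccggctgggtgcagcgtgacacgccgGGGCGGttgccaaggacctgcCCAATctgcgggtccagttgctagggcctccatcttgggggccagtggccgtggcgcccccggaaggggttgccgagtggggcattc

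The windows of DICER1 and TNRC6A each held 1 GC box and 1 CCAAT box, while that of AGO4 held neither. A GC box was present in 42.5% and a CCAAT box in 32.0% of the 34943 windows of this length in the RefSeq table. The TATA box letters TATAAA, present in 10.8% of all windows, were in none of the 9 windows found for these genes, of which 7 held a GC box and 5 a CCAAT box. Of the 9 windows, 7 lie at the start of the model used. That of XPO5 lies 37 bases from it and that of TNRC6B 133091 bases. The GC content of the windows was 74.0% for DICER1, 66.4% for AGO4 and 71.6% for TNRC6A, against a median of 58.0% over all windows. Those of TNRC6C (39.2%) and TNRC6B (56.4%) lay below that median. The TNRC6C window held neither box and included 69 bases of its own exons. No window was found for AGO2. These letter matches describe the sequence only.

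DROSHA, the enzyme of the first cut, lies on chromosome 5 (31400495 to 31532093, minus strand, hg38 per the submitters' processing notes, as for every position given here). In PC3 it stood at 17.0 and 17.7 FPKM with siControl, 17.4 and 17.3 with siLARP4A, and 14.8 and 15.0 with siLARP4B. The siLARP4B libraries were both below all others, while those of siLARP4A lay within the range of siControl. On the log2 scale, siLARP4B differed from siControl by -0.26 (SE 0.0539, edgeR adjusted p 0.00037). For siLARP4A the difference was -0.01 with a 95% interval of -0.12 to 0.10.

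In MG63, DROSHA stood at 12.9 and 13.7 FPKM with siControl, 14.4 and 14.8 with siLARP4A, and 13.5 and 13.4 with siLARP4B. The siLARP4A libraries lay above the others by a small margin. The change after siLARP4A was 0.15 (SE 0.0550, edgeR adjusted p 0.047). It missed the threshold without any 1 of the 4 libraries compared (0.10 to 0.18, edgeR adjusted p 0.079 to 0.36). After siLARP4B it was 0.04 with an interval of -0.07 to 0.16.

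XPO5, the receptor that carries hairpins out of the nucleus, lies on chromosome 6 (43522330 to 43576075, minus strand). Its PC3 levels were 22.1 and 21.5 FPKM under siControl, 15.8 and 15.2 with siLARP4A, and 19.3 and 18.2 with siLARP4B. Both siRNAs placed it below siControl without overlap, and siLARP4A further than siLARP4B. The changes were -0.50 for siLARP4A (SE 0.0540, edgeR adjusted p 2e-07) and -0.26 for siLARP4B (SE 0.0539, edgeR adjusted p 0.00044).

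In MG63, XPO5 stood at 11.7 and 12.1 FPKM with siControl, 9.66 and 9.43 with siLARP4A, and 13.0 and 13.5 with siLARP4B. Here siLARP4A lay below siControl and siLARP4B above it. The change after siLARP4A was -0.30 (SE 0.0594, edgeR adjusted p 0.00056). That after siLARP4B was 0.18 (SE 0.0573, edgeR adjusted p 0.017), and it missed the threshold without siControl replicate 1 (0.15, edgeR adjusted p 0.15), siControl replicate 2 (0.20, 0.057) or siLARP4B replicate 2 (0.14, 0.14). POLR1C, a gene of a subunit of RNA polymerases I and III, overlaps XPO5 on the opposite strand and shares 348 of its 8522 annotated exon bases, or 4.08%. The use of strand in counting is not given in the sources used here, so reads in these bases cannot be assigned to either gene. POLR1C changed by -0.21 after siLARP4A in PC3 and by 0.25 and 0.38 after siLARP4B in PC3 and MG63. Its value after siLARP4A in MG63 was -0.18 (edgeR adjusted p 0.15) and was not called. In PC3 after siLARP4B the pair thus differed in sign, and the part of POLR1C in the XPO5 values was not tested.

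DICER1, the enzyme that makes the mature duplex, lies on chromosome 14 (95086228 to 95157529, minus strand). In PC3 it stood at 8.39 and 9.69 FPKM with siControl, 18.5 and 14.6 with siLARP4A, and 6.91 and 6.90 with siLARP4B. Every siLARP4A library lay above and every siLARP4B library below siControl, although the siLARP4A replicates stood well apart from each other. The change after siLARP4A was 0.86 (SE 0.0823, edgeR adjusted p 3.5e-08), a 1.82-fold higher level, and it stayed between 0.70 and 1.05 in all 19 alternatives. The change after siLARP4B was -0.43 (SE 0.0872, edgeR adjusted p 0.00031), and -0.27 when the fit was offset by GC content and length.

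In MG63, DICER1 stood at 3.94 and 4.11 FPKM with siControl, 7.06 and 6.95 with siLARP4A, and 3.40 and 3.96 with siLARP4B. The siLARP4A libraries were again clear of the rest, while siLARP4B overlapped siControl. The change after siLARP4A was 0.82 (SE 0.0935, edgeR adjusted p 8e-07), a 1.76-fold higher level. After siLARP4B it was -0.10 with an interval of -0.31 to 0.10. All 5 annotated DICER1 models gave the same calls, with siLARP4A changes of 0.86 to 0.87 in PC3 and 0.82 in MG63. These models share most of their fragments, so that they are no independent check. The microRNA gene MIR3173 lies inside DICER1 and had 0 fragments in every library.

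**Figure D2:**
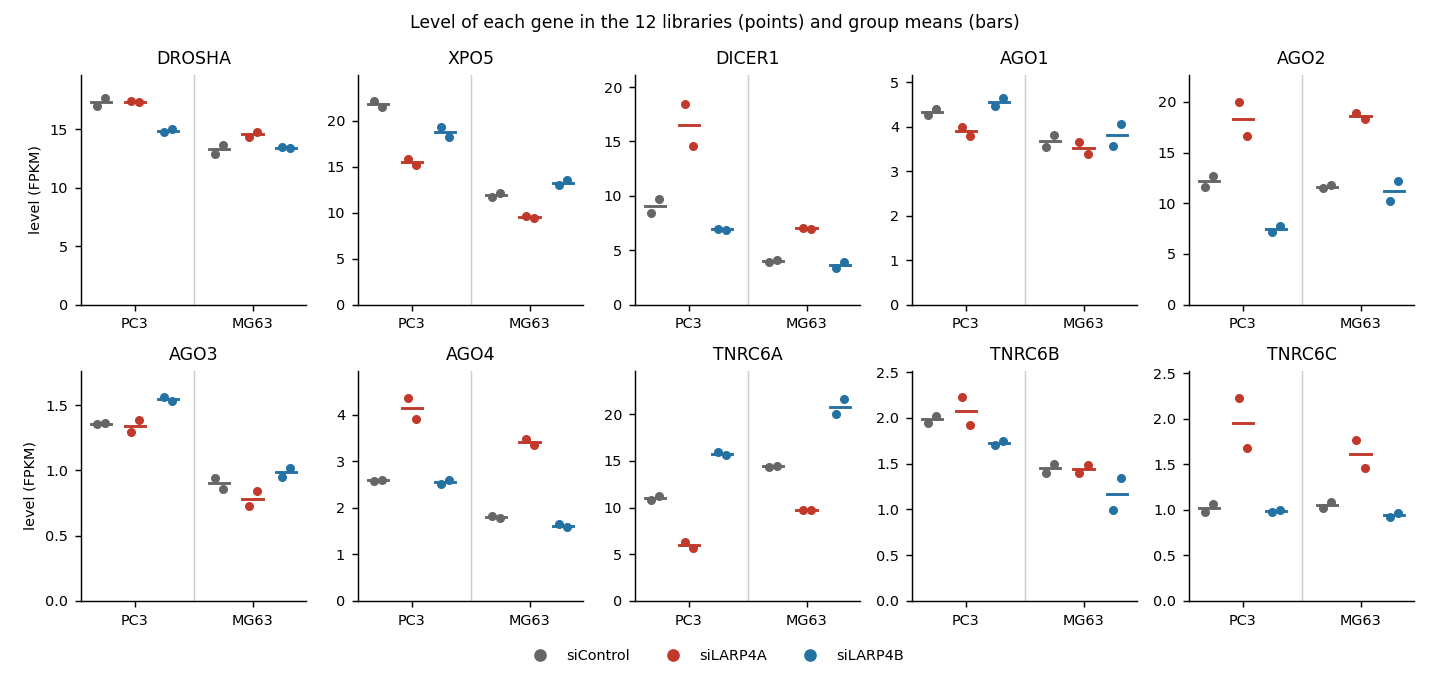
The FPKM of each of the 10 genes in its own panel (vertical axis, from 0), with points for the 12 libraries, bars for group means, and grey, red and blue for siControl, siLARP4A and siLARP4B in PC3 and MG63. In both lines the red points lie above the grey ones for DICER1, AGO2, AGO4 and TNRC6C and below them for XPO5 and TNRC6A, with the 2 red points of DICER1 in PC3 at 18.5 and 14.6.

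Among the Argonaute genes, AGO2 and AGO4 changed, while AGO1 and AGO3 did not pass the test against siControl. AGO2, whose protein can cleave its target, lies on chromosome 8 (140520156 to 140635633, minus strand). AGO2 in PC3 stood at 11.6 and 12.7 FPKM with siControl, 20.0 and 16.7 with siLARP4A, and 7.17 and 7.77 with siLARP4B. The 3 PC3 groups did not overlap, with siLARP4A highest and siLARP4B lowest. Of all genes tested in PC3, 63.4% did not overlap siControl after siLARP4A and 72.0% after siLARP4B. The AGO2 change was 0.58 after siLARP4A (SE 0.0742, edgeR adjusted p 2e-06) and -0.75 after siLARP4B (SE 0.0777, edgeR adjusted p 6.1e-08).

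In MG63, AGO2 stood at 11.5 and 11.8 FPKM with siControl, 18.9 and 18.3 with siLARP4A, and 10.2 and 12.2 with siLARP4B. The siLARP4A libraries were above the rest, and siLARP4B spanned siControl. The change was 0.70 after siLARP4A (SE 0.0747, edgeR adjusted p 3.4e-07) and -0.03 after siLARP4B, with an interval of -0.18 to 0.13. The fitted siLARP4A level in MG63 was 1.62-fold that of siControl.

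AGO4, AGO1 and AGO3 follow each other on the plus strand of chromosome 1, from 35807636 to 36072499, a stretch of 265 kilobases with gaps of 11918 and 573 bases. In PC3, AGO4 stood at 2.59 and 2.61 FPKM with siControl, 4.36 and 3.92 with siLARP4A, and 2.52 and 2.60 with siLARP4B. In MG63 it stood at 1.82 and 1.78 FPKM with siControl, 3.48 and 3.36 with siLARP4A, and 1.65 and 1.59 with siLARP4B. In both lines the siLARP4A libraries stood far above the others. The changes after siLARP4A were 0.67 in PC3 (SE 0.0813, edgeR adjusted p 1.1e-06) and 0.95 in MG63 (SE 0.0896, edgeR adjusted p 5.2e-08). After siLARP4B they were -0.06 and -0.12, neither past the threshold.

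AGO1, the neighbour of AGO4, also binds guide RNA. In PC3 it stood at 4.26 and 4.40 FPKM with siControl, 3.98 and 3.80 with siLARP4A, and 4.47 and 4.64 with siLARP4B. In MG63 it stood at 3.54 and 3.82, 3.66 and 3.37, and 3.57 and 4.06 for these groups, and the 3 MG63 groups overlapped. Its siLARP4A change was -0.16 in PC3 (edgeR adjusted p 0.065) and -0.05 in MG63 (0.67), and its siLARP4B changes were 0.03 and 0.08. With an offset for length, 3 of these 4 values passed the threshold, at -0.21 and 0.17 for siLARP4A and siLARP4B in PC3 and -0.18 for siLARP4A in MG63.

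AGO3 stood at 1.36 and 1.36 FPKM in PC3 with siControl, 1.29 and 1.38 with siLARP4A, and 1.56 and 1.53 with siLARP4B. In MG63 it stood at 0.945 and 0.861, 0.725 and 0.844, and 0.953 and 1.02. No change from siControl passed the threshold, with values of -0.04 and -0.18 after siLARP4A and 0.14 and 0.15 after siLARP4B. An offset for length brought the siLARP4A change in MG63 to -0.35 (edgeR adjusted p 0.028) and the siLARP4B change in PC3 to 0.32 (0.011), and upper-quartile scaling brought the latter to 0.22 (0.032).

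The TNRC6 genes moved in different directions. TNRC6A, the most abundant of them, lies on chromosome 16 (24729651 to 24826216, plus strand). TNRC6A in PC3 stood at 10.8 and 11.2 FPKM with siControl, 6.26 and 5.63 with siLARP4A, and 15.9 and 15.6 with siLARP4B. In MG63 it stood at 14.4 and 14.5, 9.80 and 9.74, and 20.0 and 21.6. In each line the 3 groups stood apart, siLARP4A lowest and siLARP4B highest. TNRC6A is the member that every alternative called in all 4 comparisons.

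The TNRC6A change after siLARP4A was -0.90 in PC3 (SE 0.0588, edgeR adjusted p 9e-11) and -0.54 in MG63 (SE 0.0564, edgeR adjusted p 2.1e-07). After siLARP4B it was 0.47 in PC3 (SE 0.0556, edgeR adjusted p 3.5e-07) and 0.56 in MG63 (SE 0.0539, edgeR adjusted p 4.8e-08). Its 3 models gave values within 0.01 of these for every comparison with siControl, but they share most of their fragments and are no independent check.

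TNRC6C, a lower-level member of the same family, lies on chromosome 17 (78004237 to 78108835, plus strand). TNRC6C in PC3 stood at 0.980 and 1.07 FPKM with siControl, 2.23 and 1.68 with siLARP4A, and 0.972 and 1.00 with siLARP4B. In MG63 it stood at 1.02 and 1.08, 1.77 and 1.46, and 0.919 and 0.971. The siLARP4A libraries were the highest in each line but also the furthest from each other. The siLARP4A change was 0.93 in PC3 (SE 0.126, edgeR adjusted p 4.5e-06) and 0.63 in MG63 (SE 0.132, edgeR adjusted p 0.00093). The values were 0.54 and 0.35 with limma on log2(FPKM + 1), a scale that shrinks changes of low genes. TMC6 overlaps the end of TNRC6C on the opposite strand but shares 0 annotated exon bases with it. TMC6 rose after siLARP4A too, by 0.59 in PC3 and 0.61 in MG63, and it rose by 0.47 after siLARP4B in PC3. After siLARP4B in MG63 TMC6 changed by -0.51. TNRC6C was called in neither siLARP4B comparison. The part of TMC6 in the TNRC6C values was not tested.

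TNRC6B, the third adaptor, lies on chromosome 22 (40177925 to 40335808, plus strand). TNRC6B in PC3 stood at 1.95 and 2.02 FPKM with siControl, 2.22 and 1.92 with siLARP4A, and 1.71 and 1.75 with siLARP4B. In MG63 it stood at 1.40 and 1.50, 1.39 and 1.48, and 0.997 and 1.34. The siLARP4B libraries were the lowest in each line, but in MG63 they differed from each other by more than from siControl. The siLARP4B change was -0.24 in PC3 (SE 0.0969, edgeR adjusted p 0.047) and -0.29 in MG63 (SE 0.105, edgeR adjusted p 0.036). In PC3, 14 of 18 alternatives did not call it, and an offset for length left -0.08. In MG63 it was -0.10 without siLARP4B replicate 1 and -0.52 without siLARP4B replicate 2, so that this call rests on replicate 1. Leaving out siControl replicate 1 or 2 there also ended the call (edgeR adjusted p 0.070 and 0.20).

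**Figure D3:**
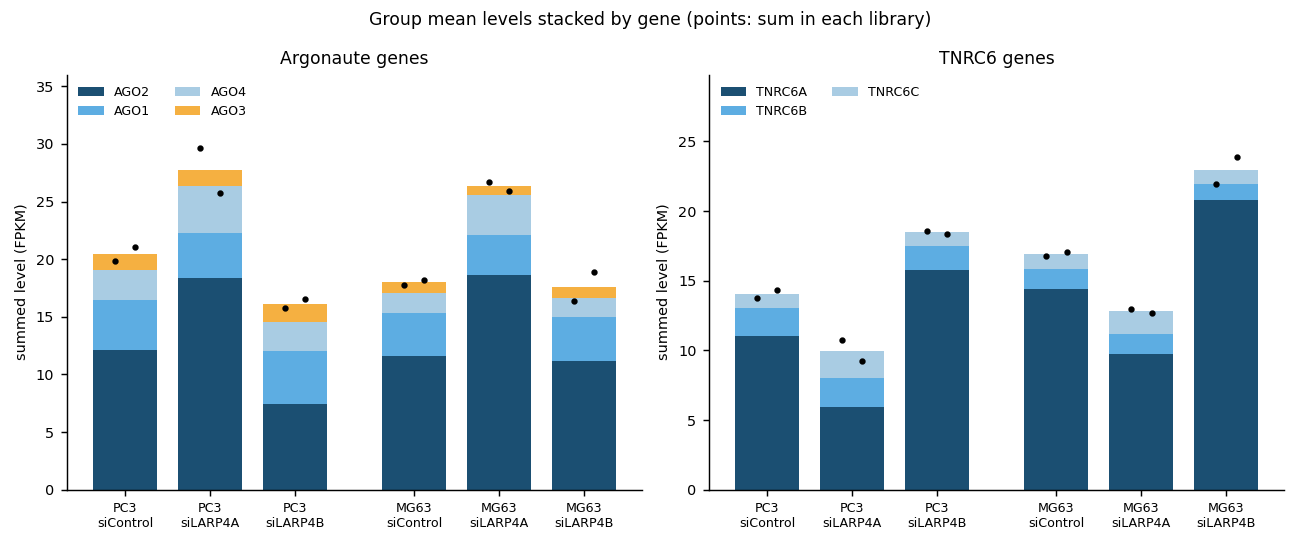
Group mean FPKM stacked by gene (vertical axis, from 0) for the 4 Argonaute genes and the 3 TNRC6 genes in the 6 groups, with a point for the sum in each library. The siLARP4A bars are the highest of their line for the Argonaute genes and the lowest for the TNRC6 genes, where the dark TNRC6A segment shrinks and the TNRC6C segment grows.

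Summed over the family, the Argonaute level in PC3 was 20.4 ± 0.840 FPKM with siControl (SD, n = 2), 27.7 ± 2.74 after siLARP4A and 16.1 ± 0.581 after siLARP4B. The MG63 sums were 18.0 ± 0.312, 26.3 ± 0.581 and 17.6 ± 1.76. The sum thus followed AGO2, which held 59.5% of it in PC3 siControl and 64.6% in MG63 siControl. In PC3 the AGO2 share was 67.5% and 64.7% in the siLARP4A libraries and 45.6% and 47.0% in those of siLARP4B.

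The summed TNRC6 level went the other way. In PC3 it was 14.0 ± 0.423 FPKM under siControl, 9.97 ± 1.06 after siLARP4A and 18.5 ± 0.163 after siLARP4B. The MG63 sums were 16.9 ± 0.178, 12.8 ± 0.195 and 22.9 ± 1.40. TNRC6A held 78.6% of the sum in PC3 siControl, 59.7% after siLARP4A and 85.3% after siLARP4B, and in MG63 its part was 85.2%, 76.2% and 90.8%. TNRC6C held 7.30%, 19.5% and 5.34% in PC3 and 6.22%, 12.6% and 4.13% in MG63. In each line the libraries of the 3 groups did not overlap in either share, and neither share was tested.

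Setting the siRNAs against each other within a line compared siLARP4A with siLARP4B without the siControl libraries. In PC3, 6 of the 10 genes were higher with siLARP4A and 3 lower, when 27% of all genes tested were higher and 27.2% lower. In MG63, 5 were higher and 3 lower, against 22.1% and 21.5% of all genes. AGO2 was 2.51-fold higher with siLARP4A in PC3 (log2 1.33, SE 0.0767, edgeR adjusted p 2.7e-12) and 1.65-fold higher in MG63 (log2 0.72, edgeR adjusted p 6.1e-08). DICER1 was 2.45-fold higher in PC3 (log2 1.29, edgeR adjusted p 2e-11) and 1.90-fold higher in MG63 (log2 0.92, edgeR adjusted p 5.2e-08).

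In the same comparison TNRC6A stood at 38.6% of its siLARP4B level in PC3 (log2 -1.37, edgeR adjusted p 1.7e-14) and at 46.7% in MG63 (log2 -1.10, edgeR adjusted p 1e-12). AGO4 differed by 0.73 and 1.07, TNRC6C by 1.03 and 0.76, and XPO5 by -0.24 and -0.48 in PC3 and MG63, each past the threshold. For TNRC6C, limma on log2(FPKM + 1) gave 0.57 and 0.42. DROSHA differed by 0.25 in PC3 (edgeR adjusted p 0.00034) and by 0.11 in MG63 (0.12). TNRC6B differed by 0.30 in PC3 (edgeR adjusted p 0.011) and 0.29 in MG63 (0.028). These TNRC6B values fell to 0.09 and 0.14 with an offset for length. The PC3 call was lost without siLARP4A replicate 1 (0.17) or siLARP4B replicate 1 (0.27). In MG63 it was lost without siLARP4A replicate 1 (0.34), siLARP4A replicate 2 (0.25) or siLARP4B replicate 1 (0.09). AGO1 was lower with siLARP4A in PC3 (-0.19, edgeR adjusted p 0.018), and the call was lost without siLARP4A replicate 2 (-0.17) or siLARP4B replicate 2 (-0.17) and with the model of highest FPKM (-0.10). AGO3 was lower in MG63 (-0.33, edgeR adjusted p 0.0061), and the call was lost without siLARP4A replicate 1 (-0.23) or siLARP4B replicate 2 (-0.29), while limma on log2(FPKM + 1) gave -0.15.

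With siControl the balance of the genes differed between the lines. Of the 10 genes, 6 were higher in PC3 than in MG63 and 1 was lower, when 42.1% of all genes tested were higher and 39.7% lower. DICER1 differed most, at 9.04 ± 0.921 FPKM in PC3 and 4.02 ± 0.122 in MG63 (log2 1.01, SE 0.0917, edgeR adjusted p 8.6e-10). XPO5 was 0.71 higher in PC3 (edgeR adjusted p 6.2e-11), DROSHA 0.22 higher (0.00070) and AGO4 0.37 higher (0.00094). TNRC6A was the gene lower in PC3, by -0.55 (edgeR adjusted p 6e-09). For AGO3 (0.43) and TNRC6B (0.29) the difference between lines fell to 0.08 and -0.03 with an offset for length, and the TNRC6B call was also lost without PC3 siControl replicate 2 (0.25) or MG63 siControl replicate 1 (0.23). The differences of DROSHA and AGO4 fell to 0.11 and 0.23 with an offset for length and GC content, and that of TNRC6A to -0.36 with limma on log2(FPKM + 1). AGO1 (0.07), AGO2 (-0.10) and TNRC6C (-0.20) did not pass the threshold. With an offset for length, AGO2 (-0.32) and TNRC6C (-0.31) did. AGO1 passed at 0.21 with library totals and, on the other side of 0, at -0.17 when offset by GC content and length. Scaling by library totals moved the median difference of all genes here from 0.02 to 0.16.

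Per kilobase, the order of the levels in PC3 siControl was XPO5, DROSHA, AGO2, TNRC6A, DICER1, AGO1, AGO4, TNRC6B, AGO3 and TNRC6C, with no overlap between neighbours. In MG63 siControl TNRC6A came first at 14.4 FPKM, followed by DROSHA at 13.3, XPO5 at 11.9 and AGO2 at 11.6, and the libraries of XPO5 and AGO2 overlapped. After siLARP4A in PC3, AGO2, DROSHA and DICER1 led at 18.3, 17.4 and 16.5 FPKM, and each overlapped the next. TNRC6A then stood at 5.94. The level of AGO1 depends on the transcript model, since its 7492-base model gave 6.50 FPKM in PC3 siControl and 6.05 in MG63 siControl, where the 13711-base model used gave 4.33 and 3.68. With the shorter model AGO1 would stand above DICER1 in MG63.

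Whether a response differed between the lines was tested by the interaction of line and siRNA. For siLARP4A, 0 of the 10 genes had a higher and 1 a lower response in PC3, when 4.1% and 7.29% of all genes tested did. Library totals as the scale gave 887 higher and 887 lower genes in place of 642 and 1142. That gene was TNRC6A, whose decrease was larger in PC3 by 0.36 (interaction -0.36, SE 0.0814, edgeR adjusted p 0.0056). The interaction was -0.24 without PC3 siLARP4A replicate 2 and -0.29 without PC3 siControl replicate 2, with edgeR adjusted p of 0.055 and 0.067. Without PC3 siLARP4A replicate 2, TNRC6C was called instead, with a larger increase in PC3 by 0.53 (edgeR adjusted p 0.033). For DICER1, AGO2 and AGO4 the interaction was 0.04, -0.11 and -0.28, with 95% intervals of -0.21 to 0.30, -0.33 to 0.10 and -0.53 to -0.03.

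For siLARP4B, 0 of the 10 genes had a higher and 3 a lower response in PC3, when 10.3% and 17.6% of all genes did. Those background shares turned around with library totals as the scale, which gave 2524 higher and 1666 lower genes in place of 1615 and 2750, and with upper-quartile scaling, which gave 2366 and 1788. AGO2 had an interaction of -0.72 (SE 0.108, edgeR adjusted p 3.4e-05) from changes of -0.75 in PC3 and -0.03 in MG63. XPO5 had an interaction of -0.44 (SE 0.0787, edgeR adjusted p 0.00023), with changes of -0.26 and 0.18. Both were called in all 22 alternatives run. DROSHA had an interaction of -0.31 (SE 0.0771, edgeR adjusted p 0.0047), which fell to -0.19 with library totals (0.075) and -0.20 with upper-quartile scaling (0.053). It also missed the threshold without PC3 siControl replicate 2 or PC3 siLARP4B replicate 1, at -0.25 in each case. The DICER1 interaction of -0.33 had an edgeR adjusted p of 0.069 and was not called.

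**Figure D4:**
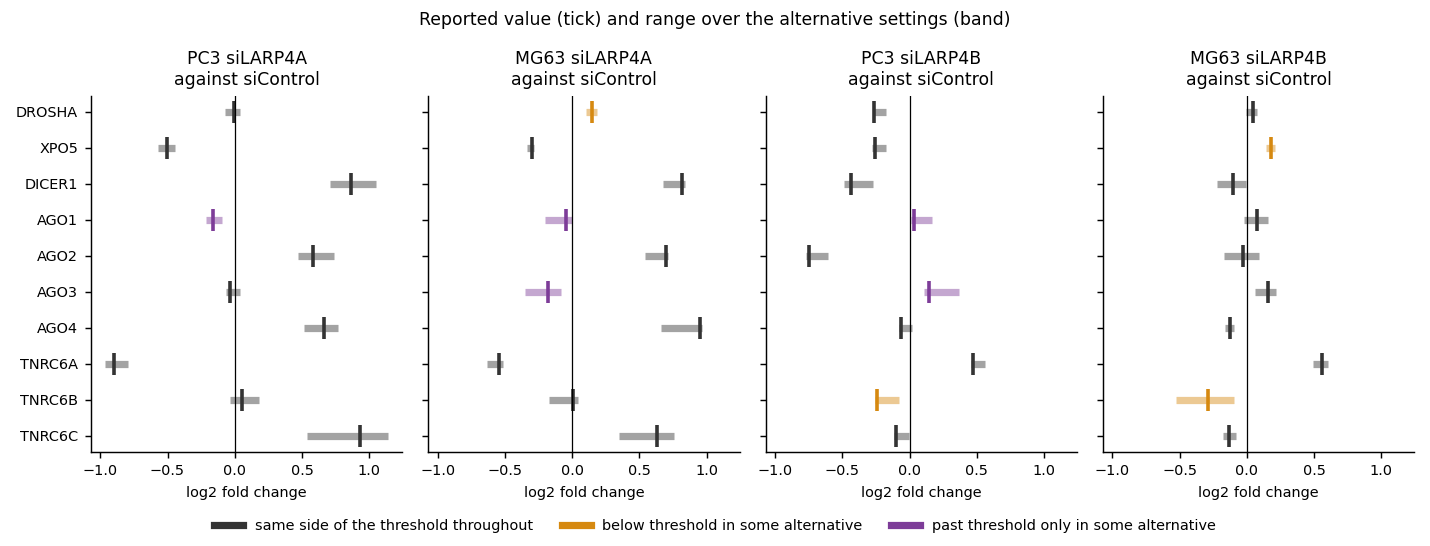
The reported log2 fold change (tick) of each of the 10 genes and its range over the alternative settings (band), in 4 panels for siLARP4A and siLARP4B against siControl in PC3 and MG63, with calls lost in some setting in orange and calls gained in some setting in purple. Of the 22 calls against siControl, the 4 in orange (DROSHA, XPO5 and TNRC6B, the last in both lines) were lost in at least 1 setting. The other 18 were lost in no setting that tested the gene. The bands of all 22 stay on 1 side of 0.

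The partners of these proteins were examined as a list of 38 genes of processing, export, Argonaute loading, target silencing and small RNA decay, of which 35 could be tested. After siLARP4A in PC3, 8 were higher and 4 lower, with a median of 0.02, when 17% of all genes were higher and 19% lower. After siLARP4B in PC3, 5 were higher and 15 lower, with a median of -0.08, beside 21.3% and 23.4% of all genes. After siLARP4A in MG63, 4 were higher and 9 lower, with a median of -0.03, beside 14.5% and 11.9%. After siLARP4B in MG63, 10 were higher and 9 lower, with a median of 0.03, beside 18.8% and 16.3%. The median of all genes tested was between 0 and 0.01 in each of these comparisons.

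Among the list genes past the threshold, the largest increases after siLARP4A in PC3 were those of TRIM71, an Argonaute-binding ubiquitin ligase (1.32, at means of only 0.125 against 0.0492 FPKM), and TUT7, an enzyme that adds uridines to microRNA precursors (0.39). The largest decreases were those of ZSWIM8, the adaptor of a ligase that degrades Argonaute on certain targets (-0.46), and CNOT1, the scaffold of the CCR4-NOT deadenylase (-0.17). In MG63 the largest changes past the threshold were those of AJUBA, a LIM protein found with Argonaute (0.57), and the exonuclease XRN1 (0.31), against the Argonaute-loading chaperones FKBP4 (-0.38) and HSP90AA1 (-0.29). ZSWIM8 was also lower after siLARP4A in MG63 (-0.23) and was higher after siLARP4B in both lines, at 0.49 in PC3 and 0.25 in MG63.

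After siLARP4B, PRKRA, a binding partner of DICER1, had the largest decrease past the threshold in both lines, -0.83 in PC3 and -0.61 in MG63. It was followed by TENT2, a poly(A) polymerase of small RNA (-0.68), in PC3 and by the helicase DDX6 (-0.57) in MG63. The largest increases past the threshold were those of AJUBA (0.49) and ZSWIM8 (0.49) in PC3 and of the RNA-editing enzyme ADAR (0.52) and FKBP4 (0.41) in MG63.

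Interferon-response genes, which cells can induce on sensing double-stranded RNA, also differed between the groups. Of 10 such genes, 0 were higher and 5 lower after siLARP4A in PC3, with a median of -0.40, when 17% of all genes were higher and 19% lower. With siLARP4B in PC3, 9 were higher and 0 lower, with a median of 0.84, beside 21.3% and 23.4% of all genes. With siLARP4A in MG63, 8 were higher and 0 lower, with a median of 0.51, beside 14.5% and 11.9%. With siLARP4B in MG63, all 10 were higher, with a median of 1.98, beside 18.8% higher among all genes. Their part in the changes of the 10 genes was not tested.

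The 10 genes share long transcripts. Their models ran from 5415 bases for DROSHA to 19659 for AGO3, where the median of all genes tested was 3217. After siLARP4A the longest of 4 equal classes of all genes had a median change of 0.06 in PC3 and 0.09 in MG63, and the shortest class -0.10 and -0.06. With an offset for length, and with one for length and GC content together, DICER1, AGO2, AGO4 and TNRC6C were again called higher after siLARP4A in both lines.

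The genes most alike in pattern were found for 3 members over the 12 libraries, after subtraction of each line's mean, among 8406 other genes with a mean of at least 5 FPKM. For AGO2 they were CREBBP (r 0.988), CDV3 (0.986) and SLK (0.984). For DICER1 they were RIC1 (0.987), ITGB1 (0.986) and FNDC3B (0.984). For TNRC6B they were SRCAP (0.963), RBM33 (0.936) and BPTF (0.927). These values describe 12 libraries that share the same 3 siRNA groups in each line, and carry no test.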

How the data were processed

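The authors deposited, per the file headers, a table for each of the 12 libraries with fragment counts per transcript model, a normalized signal (FPM, fragments scaled by library size) and FPKM (also scaled by model length). The submitters' processing notes name FastQC, HISAT2, featureCounts, edgeR and the hg38 build; versions and the use of strand are not given in the sources used here. Models of a gene share fragments. Each gene named at 1 locus on chromosomes 1 to 22 and X was represented by its model of largest summed fragment count.

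The deposited counts of all 12 libraries entered 1 edgeR 4.0.16 quasi-likelihood fit (R 4.3.3, TMM scaling, filterByExpr), with Benjamini-Hochberg adjustment over 15668 genes in each of 9 comparisons and a threshold of 0.05. The biological coefficient of variation was 4.21%. FPKM values are shown as levels only. Alternatives were other scalings, DESeq2 1.42.0, limma 3.58.1 on log2(FPKM + 1) or log2(FPKM + 0.1), other filters and models, offsets for length or GC content, a replicate block and each library left out. A deduplicated table of PC3 siControl replicate 2 was used only as an alternative. The fit was tested on simulated data. All 10 genes are described; further genes are named as the 2 largest changes in each direction past the threshold in a pathway list, as the 3 most alike in pattern, or by their overlap with a member. The members and lists were chosen with earlier results of these data known.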

Additional observations from a re-analysis of the deposited data

Results flagged for a closer look

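The response of AGO2 to siLARP4B differed between the lines by a test of the difference itself, with an interaction of -0.72 on the log2 scale, lower in PC3. The same test gave -0.44 for XPO5 and -0.31 for DROSHA after siLARP4B. After siLARP4A it gave -0.36 for TNRC6A.

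The tables of the first replicate of each PC3 group carry a column without a heading that is filled for 6 genes, 3 of them members, and enters no comparison. In the PC3 siLARP4A table it held 4.64 for AGO4, 20.0 for AGO2 and 2.24 for TNRC6C. The siControl table held 2.66, 11.6 and 0.986 for the same genes, and that of siLARP4B held 2.67, 7.16 and 0.977. For these 3 genes the values equal the mean FPKM over the 2 models of the gene in that library.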

How the results depend on the processing

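Of the 22 calls of members against siControl, 18 held in every alternative that tested the gene. AGO4 and TNRC6C were not tested with a minimum mean of 5 FPKM. The other 4 calls were TNRC6B after siLARP4B in both lines, DROSHA after siLARP4A in MG63 and XPO5 after siLARP4B in MG63. The count of members called after siLARP4B in MG63 was 3, and 1 to 2 with a library left out. With a minimum mean of 5 FPKM, which leaves fewer members to test, the counts for siLARP4A against siLARP4B fell from 9 to 5 in PC3 and from 8 to 5 in MG63, and that between lines under siControl from 7 to 4. The siLARP4A interaction called 1 member, 2 with an offset for length and 2 with one for GC content and length (XPO5 in addition), and 0 to 1 with a library left out. The differences between lines changed sign under siControl for AGO1, at -0.17 when offset by GC content and length, and for TNRC6B, at -0.027 when offset by length and -0.094 when offset by both; the cause was not tested.

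Replicates with the same number showed no common deviation, since the correlations of their deviations ran from -0.06 to 0.07. Whether they were handled together is not given in the sources used here. With a replicate block the members called were 6, 6, 6 and 3 for siLARP4A and siLARP4B in PC3 and then in MG63, against 6, 6, 7 and 3, the difference being DROSHA (0.15, edgeR adjusted p 0.068). Over all genes, the siLARP4A calls in MG63 fell from 4138 to 2701, 2698 and 2702 without siControl replicate 1, siControl replicate 2 and siLARP4A replicate 1. The siLARP4A interaction calls fell from 1784 to 1135 without PC3 siControl replicate 1, and to 1062, 1049, 1175 and 1091 without each MG63 siControl and siLARP4A library. Calls between lines fell from 12819 of 15668 genes tested to 8524 of 9885 with the FPKM minimum. Low counts limit TNRC6C most, with 166 to 542 fragments in a library. The offset for GC content and length and the model of highest FPKM were chosen after seeing the data.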
